A study of Rattus norvegicus with 2 samples.

Results

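The genes described here encode the receptors for glutamate, the transporters that load it into synaptic vesicles, and the scaffold proteins that hold its receptors at the synapse. They were taken from a rat gene expression array by name: every non-control probe whose gene name starts with Gria, Grid, Grik, Grm, Slc17a, Dlgap, Shank or Homer, or with Grin or Dlg followed by a digit. This gave 50 genes on 66 probes, of 26269 gene names and 30367 probes on the array. The name rule also took in Grid2ip, a scaffold that binds a delta receptor, and members of the SLC17 family that carry other substrates. Under current RefSeq names 66 of the 66 probes still fitted the rule, and 0 other probes did.

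The tissue was labelled as the paraventricular nucleus of the hypothalamus, a centre of hormone release and sympathetic outflow. It came from male Sprague Dawley rats aged 12 weeks, and no genetic change is named in the labels. The control group was born to mothers given vehicle, and the other group to mothers given dexamethasone, a synthetic glucocorticoid, at 200 µg/kg in the third trimester. Each group had 1 array. The sources used here do not say whether an array held RNA of 1 animal or of several pooled ones. The arrays shared a slide but not a position on it, and a position effect cannot be told apart from the group.

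Glutamate is the main excitatory transmitter of the brain. AMPA, NMDA and kainate receptors are ion channels built from subunits, and metabotropic receptors act through G proteins. Beneath the postsynaptic membrane, DLG proteins bind receptor tails, DLGAP proteins link DLG to SHANK, and HOMER ties SHANK to metabotropic receptors and calcium stores. In the paraventricular nucleus glutamate inputs drive neurosecretory and preautonomic neurons. Slc17a7 and Slc17a6 encode the vesicular transporters that mark, broadly, cortical and subcortical glutamate neurons.

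The probes are 60-base oligonucleotides of known sequence, and each reports 1 stretch of a transcript. Those of 7 of the members furthest from equality are shown because each value below is that of such a stretch, together with a Gria3 probe that lies beside the Gria2 probe in alignment and a Grik1 probe whose partner gave another value. Capitals in the Gria2 and Gria3 probes mark the bases that differ between them where they overlap. The Dlgap2 probe shown is the dimmer of its pair.
Gria1: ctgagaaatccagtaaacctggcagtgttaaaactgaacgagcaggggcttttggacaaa
Gria2: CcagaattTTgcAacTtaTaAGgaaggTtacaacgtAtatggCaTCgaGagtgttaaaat
Gria3: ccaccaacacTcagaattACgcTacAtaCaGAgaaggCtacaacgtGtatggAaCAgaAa
Grin2b: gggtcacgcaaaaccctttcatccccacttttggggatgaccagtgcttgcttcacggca
Slc17a7: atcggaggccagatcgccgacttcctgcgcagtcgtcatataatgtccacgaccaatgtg
Dlgap2: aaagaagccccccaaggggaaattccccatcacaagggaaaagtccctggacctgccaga
Homer3: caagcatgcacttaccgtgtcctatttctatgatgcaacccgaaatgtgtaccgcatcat
Grid2ip: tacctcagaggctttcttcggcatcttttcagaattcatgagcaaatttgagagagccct
Grik1: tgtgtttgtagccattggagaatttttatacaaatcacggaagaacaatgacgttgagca
The deposited files place these probes on the rn4 assembly of the rat genome. The Gria2 probe was at chr2:172269214-172269273 on the minus strand, and the Gria3 probe at chrX:3459714-3459773 on the minus strand. The Grin2b probe, for an NMDA receptor subunit, was at chr4:172722609-172722668 on the minus strand. Slc17a7 was at chr1:95649107-95649166 on the plus strand, Dlgap2 at chr16:79613422-79613481 and Homer3 at chr16:19624630-19624689, both on the minus strand. Grid2ip was at chr12:11525497-11525732 on the minus strand, a span of 236 bases for a 60-base probe, and Grik1 at chr11:27722939-27722998 on the minus strand. The Gria1 probe is listed as unmapped. Exon, intron and UTR positions and the splice form each probe reads were not analysed here. In the 50 bases where the Gria2 and Gria3 probes overlap, 36 bases were identical and 14 differed (72% identity).

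Of the 50 genes, 47 were measured, meaning that at least 1 probe was well above background on both arrays. In the dexamethasone array 7 of the 47 (14.9%) were at least 2-fold higher, beside 2.73% of all 20144 measured genes. The 7 were Dlgap2, Slc17a7, Grin2a, Gria2, Homer3, Gria1 and Grin2b. Only Grid2ip (2.13% of the measured members) was at least 2-fold lower, beside 3.22% of all genes, and either way the background was 5.95%. Counted by probe, 9 of 63 measured member probes were at least 2-fold higher and 2 were lower, beside 2.67% and 3.18% of all measured probes (5.84% either way). The other 39 lay within 2-fold, 27 of them within 0.5 on the log2 scale. The member median was 0.07 (log2, dexamethasone minus control, after each array was set to its 75th percentile) and that of all genes 0.02. Between 0.5 and 1 there were 6 members upward and 6 downward (12.8% each), beside 5.08% and 7.19% of all genes. With normexp background correction, or with none, 4 members were at least 2-fold higher, beside 1.56% and 1.53% of all genes in those settings, and the calls of Slc17a7, Homer3 and Grin2b ended. With 1 array a group there is no replicate check and no test. Fewer cells of a type and less RNA per cell cannot be told apart in such bulk RNA.

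**Figure D1:**
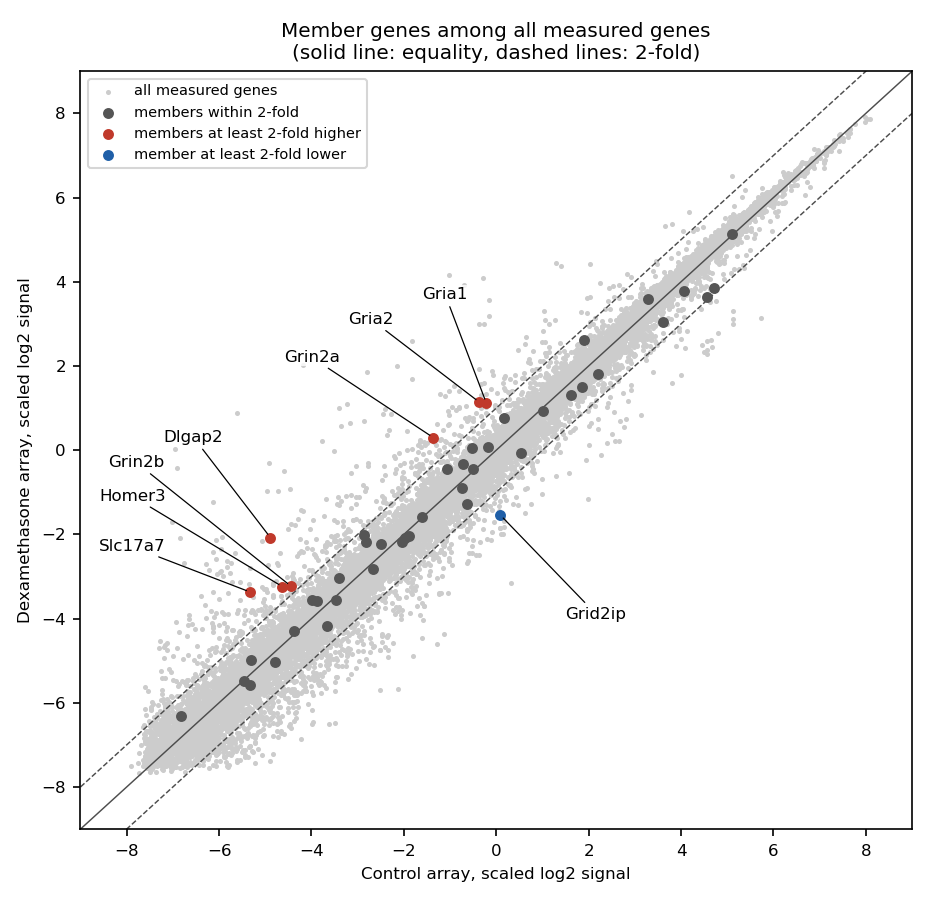
Scaled log2 signal on the control array (x axis) and the dexamethasone array (y axis), where 0 is each array's 75th percentile; grey points are all 20144 measured genes and larger points the 47 measured members. Red points are the 7 members at least 2-fold higher, of which Gria1, Gria2 and Grin2a sit near mid-scale and the other 4 at low signal, and the blue point is Grid2ip; dashed lines mark 2-fold.

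AMPA receptor genes had the highest family median, 1.04 over 4 subunits. Gria1, which encodes a subunit trafficked to synapses during plasticity, had a mean signal of 1210 (SD 51.1, 10 spots) on the control array and 3223 (SD 90.7) on the dexamethasone array. Its spots ran from 1118 to 1271 on the former and from 3015 to 3325 on the latter. Such spots are repeats within 1 array and give no spread between animals. The gene was 2.53-fold higher (log2 difference 1.34, from 1.30 to 1.43 over the spots). Gria2, whose product makes edited AMPA receptors impermeable to calcium, went from 1089 to 3264, which is 2.84-fold (1.51). Its second probe, far dimmer, went from 68.3 to 200.4 and gave nearly the same difference (1.48). Both Gria2 probes were single spots. Probes of that signal that were spotted repeatedly had a median spot SD of 0.036 for the brighter and 0.089 for the dimmer, and the scanner software's own error estimate was 0.20 and 0.21.

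Gria3 stayed within 2-fold, with 5222 on the control array and 9151 on the dexamethasone array (0.73). The Gria3 probe printed above went from 794.9 to 1502 (0.84), a smaller difference than that of the Gria2 probe it aligns with. Gria4, a subunit known from fast-signalling neurons, was the only AMPA gene lower in the dexamethasone array. Its signal was 5094 against 4167 (-0.37, spot SD 0.031 over 10 spots), and its second probe gave -0.29. The order Gria2, Gria1, Gria3, Gria4 therefore ran from 1.51 to -0.37. The gap between Gria2 and Gria1, 1 of them a single spot, was smaller than the scanner software's error of 0.20.

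**Figure D2:**
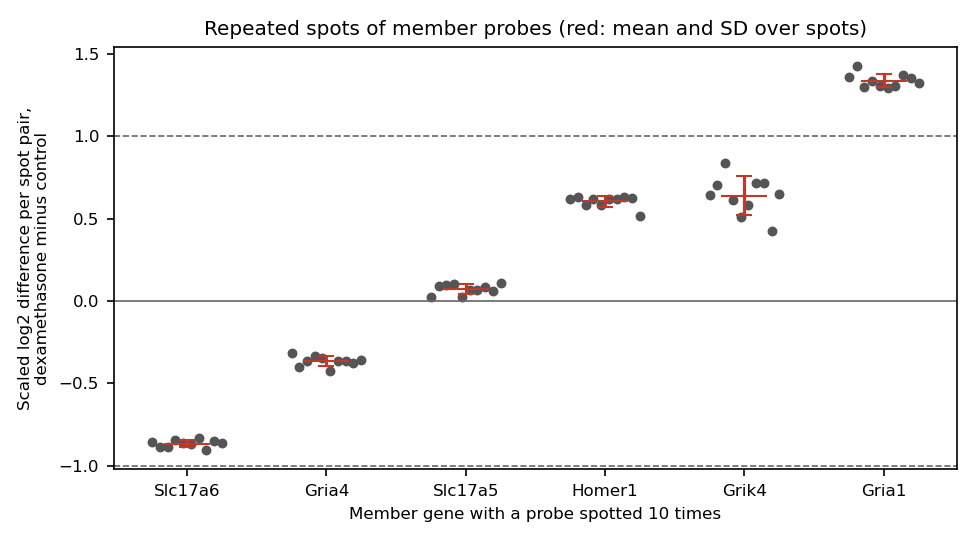
Log2 difference (dexamethasone minus control, y axis) of each pair of repeated spots for 6 measured members spotted 10 times. Points are spot pairs and red bars their mean and SD, and dashed lines mark 2-fold: all Gria1 pairs lie between 1.30 and 1.43, and all Slc17a6 pairs between -0.90 and -0.83.

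NMDA receptor genes split by subunit. Grin2a, whose subunit predominates at mature forebrain synapses, had a signal of 545.8 on the control array and 1822 on the dexamethasone array, 3.17-fold higher (1.66). Grin2b, the subunit that prevails early in development, went from 64.5 to 157.9, 2.32-fold (1.22), but by 0.70 with normexp correction and 0.71 with no background correction. The obligatory subunit gene Grin1 was near equality but dim, with 67.2 and 75.8 (0.10, or -0.05 with normexp correction, and 0.26 on its second probe). Its difference of 0.10 was smaller than the scanner error of 0.21. Grin2c and Grin2d, the other members of the same subfamily, were far brighter than the array's 75th percentile. Grin2c was at 17054 and 12282 (-0.55), while Grin2d was the NMDA gene closest to equality, at 48175 and 51779 (0.03). Grin3a and Grin3b, whose subunits bind glycine and not glutamate, were both lower, at -0.61 (-0.79 on the second Grin3a probe) and -0.52. The family median of 0.03 turned to -0.07 with quantile and -0.06 with cyclic loess normalization.

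No kainate receptor gene passed 2-fold on its brightest probe, beside 5.95% of all genes either way. In a family of 5, none is close to that share. Grik1 was lowest, at 905.8 against 615.1 (-0.63). Its second probe went from 624.0 to 278.4, 2.36-fold lower (-1.24), so the call depended on which stretch of the transcript was read. For each of these probes the files list 3 RefSeq transcripts. Grik4, a subunit that forms channels only together with others, was highest, with spot means of 199.9 and 327.8 (0.64). Its spots were the most scattered of the repeated measured members, with pair differences from 0.42 to 0.84 (SD 0.12), all above 0. Grik5, also such a partner subunit, was at 0.31. Grik2 and Grik3 were at 0.02 and -0.0045. Grik3 was the closest to equality of all measured members but dim (31.7 and 33.3), and both genes changed sign with background correction or scaling.

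Delta receptors are relatives of the ionotropic receptors that bind cerebellins. Grid1 was close to equality, at 356.1 and 351.3 (-0.10). Grid2ip, a scaffold of delta receptors at cerebellar synapses, went from 1493 to 508.7 and was 3.09-fold lower (-1.63). It was a single-spot probe, with a spot SD of 0.043 at similar signal and a scanner error of 0.20, and remained past 2-fold with normexp correction (-1.54).

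Metabotropic receptor genes lay mostly below equality: 7 of 8 were lower in the dexamethasone array in each processing setting that kept all 8. Of all 20144 measured genes 9628 were below 0. The median was -0.20 in the main setting, and none of the 8 passed 2-fold, beside 5.95% of all genes either way. The differences of Grm5, Grm7 and Grm8 were smaller than their scanner errors (0.20, 0.21 and 0.20). Grm4, a presynaptic receptor coupled to inhibitory G proteins, came closest, with a signal of 32935 on the control array and 18449 on the dexamethasone array. That is 1.88-fold lower (-0.91), and its second probe gave -0.94. The other group III genes were nearer 0, with Grm6, best known from retinal bipolar cells, at -0.25, Grm8 at -0.14 and Grm7 at -0.11 (127.8 and 124.9). The group I receptor gene Grm5, coupled to phospholipase C, was at -0.15. The group II genes Grm2 and Grm3 went opposite ways, at -0.31 and 0.62. Grm3, which astrocytes also express, was the 1 metabotropic gene above 0, with 666.2 against 1080.

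Slc17a6 and Slc17a7, both vesicular glutamate transporters, differed in opposite directions. Slc17a6, the subcortical transporter, had a mean signal of 36843 (SD 1027, 10 spots) on the control array and 21300 (SD 579) on the dexamethasone array. It was 1.82-fold lower (-0.87, spot SD 0.022), just inside the 2-fold rule. Slc17a7, the cortical transporter, went from 35.1 to 143.1, 3.87-fold higher (1.95). This probe was dim: the spot SD at similar signal was 0.12, the scanner error 0.22, and the difference with normexp correction 0.95. Slc17a8, found in scattered serotonergic, cholinergic and interneuron populations, was at 12.5 and 18.5 (0.49), with a scanner error of 0.28, and at 0.13 with normexp and 0.06 with no background correction. A level cannot be compared between these probes, so the balance of transporters was not analysed here.

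The rest of the SLC17 family served as a comparison within the same name group. Slc17a5, the lysosomal sialic acid exporter, was at 984.5 and 1092 (0.07) and Slc17a9, the vesicular nucleotide transporter, at -0.25 (-0.15 with normexp correction). Slc17a1, Slc17a2 and Slc17a3, known mainly from kidney and liver, were near background on both arrays, neither value being well above it, with signals from 1.32 to 3.28.

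**Figure D3:**
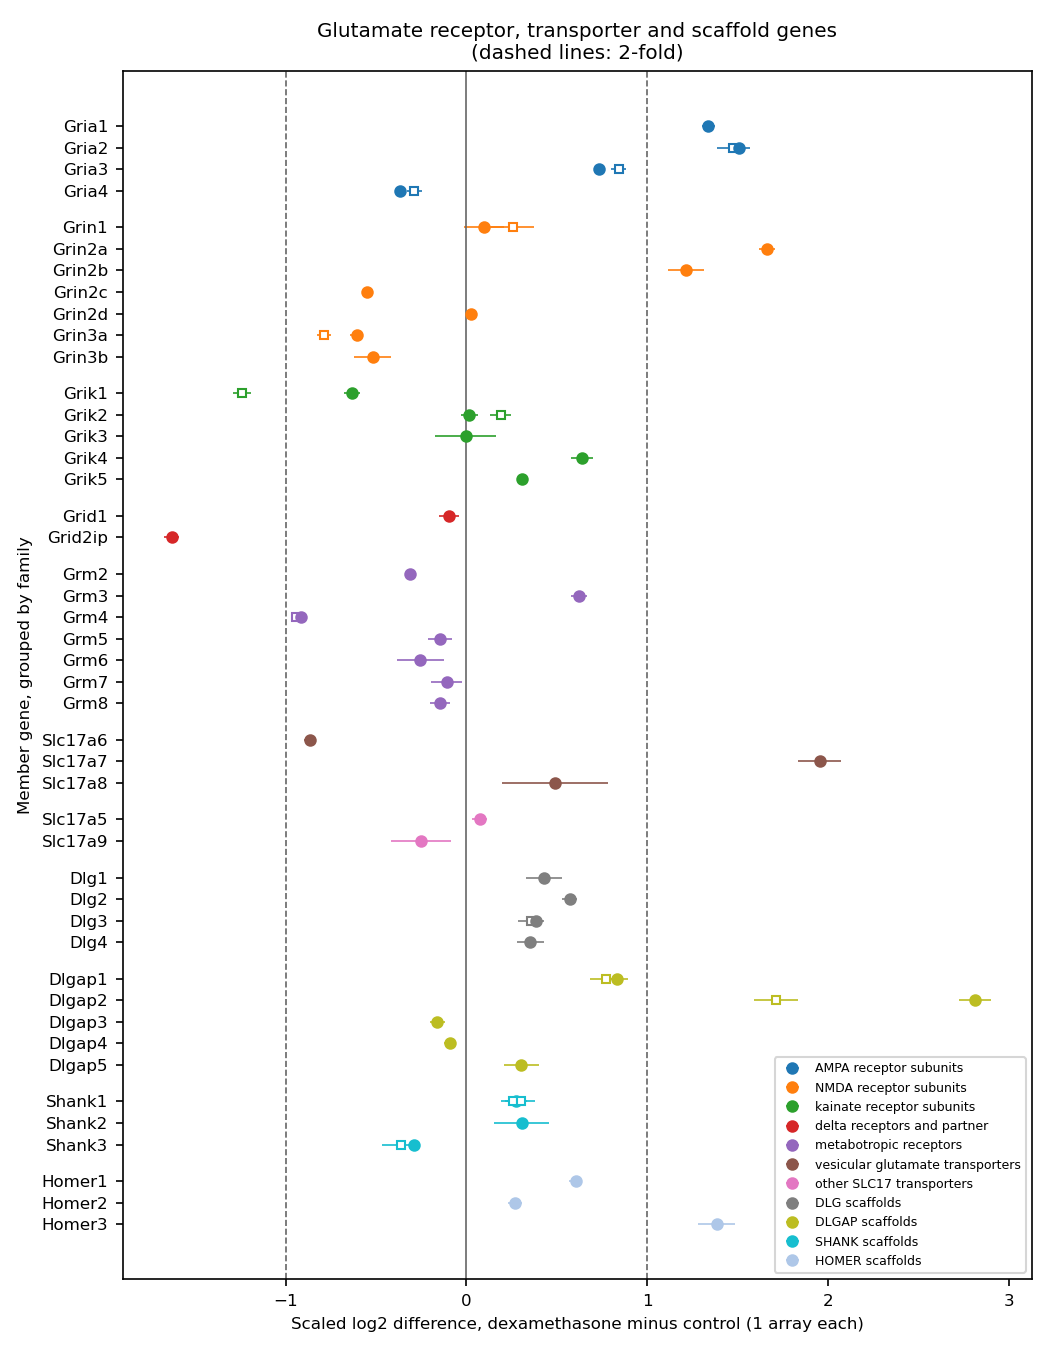
Log2 difference (dexamethasone minus control, x axis) of the measured members named in the text, in rows grouped by family; filled circles are the brightest probe of a gene, open squares its other probes, and error bars the median spot SD of repeated probes of similar signal. Dashed lines mark 2-fold: the filled circles of 7 genes lie to the right of them and that of Grid2ip to the left, and the metabotropic genes other than Grm3 lie left of 0.

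Scaffold genes lay mostly above equality, 12 of 15, with a median of 0.35. Of all 20144 measured genes 10516 were above 0, with a median of 0.02. With normexp correction the DLGAP median fell from 0.30 to 0.14 and the SHANK median from 0.27 to -0.02. The DLG and HOMER medians were then 0.31 and 0.57. Among genes of above-median signal, 2 DLG and 2 HOMER genes were above 0, while 2 DLGAP genes and 1 SHANK gene were below. All 4 DLG genes were higher in every setting that kept all 4. Each was within 2-fold, which in a family of this size is close to the 5.95% of all genes past it either way. These membrane-associated guanylate kinases anchor NMDA receptors and, through auxiliary subunits, AMPA receptors. Dlg2 was at 0.57, Dlg1 at 0.43, Dlg3 at 0.39 and Dlg4, the most abundant scaffold of the excitatory postsynapse, at 0.35 (133.2 and 179.4). With normexp correction Dlg1 was at 0.27 and Dlg4 at 0.23.

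Dlgap2 had the largest difference of all members. Its brightest probe went from 47.4 to 351.0, 7.02-fold higher (2.81), and the probe printed above from 34.3 to 118.3 (1.71). Both passed 2-fold, but they differed by 1.1, the widest gap between probes of any member, at scanner errors of 0.21 and 0.22. With normexp correction the brightest probe was at 1.93. Dlgap1 was, of the genes within 2-fold, the one nearest to it upward, at 194.3 and 364.2 (0.83, and 0.77 on its second probe). Dlgap3, tied to striatal synapses, was at -0.16 and Dlgap4 at -0.09 (2840 and 2810). Dlgap5, a family member that works on the mitotic spindle and not at the synapse, was at 0.30 (0.14 with normexp correction).

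The SHANK genes, master scaffolds of the postsynaptic density, all stayed within 2-fold. In so small a family, none past it is close to the 5.95% of all genes either way. Shank1 was at 0.27 (248.2 and 316.3), and its 3 probes spanned only 0.26 to 0.30. Shank2 was dim, at 0.31, and at -0.02 with normexp correction. Shank3 was the 1 SHANK gene lower, at -0.29 and -0.36 on its probes. HOMER genes were all higher: Homer3 went from 56.8 to 156.4, 2.61-fold (1.38, and 0.83 with normexp correction). Homer1, whose short form is induced by activity and whose long forms link receptors to calcium stores, had spot means of 1570 and 2515 (0.60, spot SD 0.036). Homer2 was at 0.27 (1239 and 1572).

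Where a gene had several measured probes they mostly gave like values. For 14 of 15 such genes all probes had 1 sign. The gap between probes had a median of 0.11 and was under 0.25 for 11 genes. Dlgap2 and Grik1 (0.61) had the widest gaps.

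**Figure D4:**
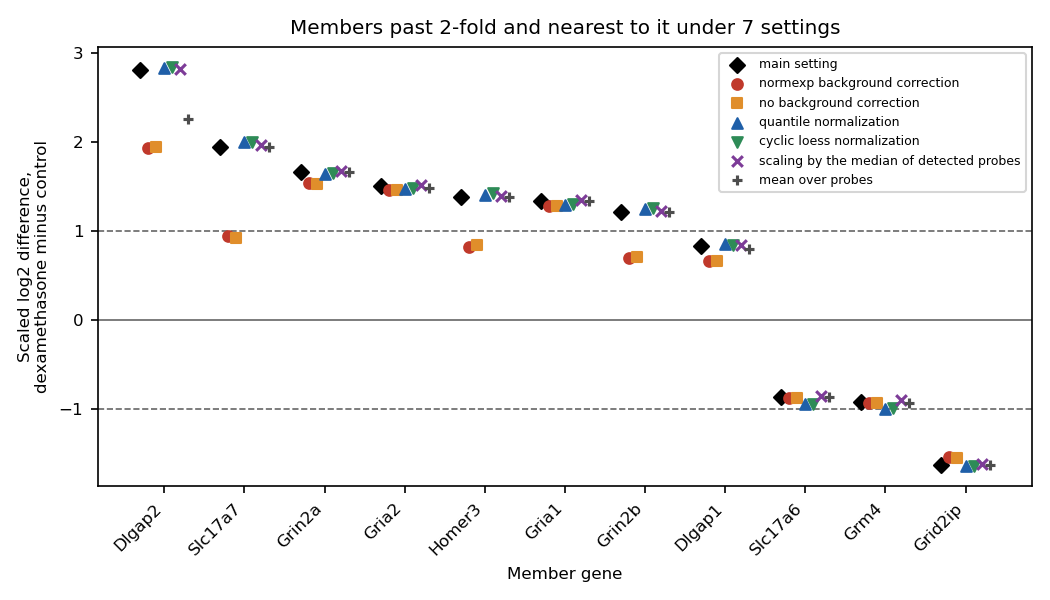
Log2 difference (y axis) of the 8 members past 2-fold and the 3 nearest to it, under the main processing and 6 alternatives, 1 symbol for each. Slc17a7, Homer3 and Grin2b fall inside the dashed 2-fold line with normexp or no background correction, while Dlgap2, Grin2a, Gria2, Gria1 and Grid2ip stay outside it.

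Genes that work with these receptors were read from 6 lists. Of 113 genes listed, 106 were measured, of which 16 were at least 2-fold higher and 3 lower, with a median of 0.13, beside 2.73% and 3.22% of all genes. The count of lower genes was near that background. Enzymes and adaptors of the NMDA receptor and postsynaptic density held the most, 9 of 23 higher and 0 lower (median 0.35). The highest was Nrgn, a calmodulin-binding protein of forebrain spines (3.73), followed by Baiap2, an actin adaptor that binds DLG and SHANK (3.28). Next came Cnksr2, a scaffold of Ras signalling (2.79, but 1.55 on another probe), and Arc, which drives AMPA receptor endocytosis (2.57). Ppp3ca, a calcineurin subunit, was at 1.91, Agap2 at 1.73, Ptk2b, a calcium-dependent tyrosine kinase, at 1.45, Sipa1l1, a regulator of Rap, at 1.16 and Camk2a, the plasticity kinase, at 1.01. With normexp correction 7 remained past 2-fold, Agap2 being at 0.68 and Camk2a at 0.89.

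AMPA receptor partners had 4 of 23 genes at least 2-fold higher and 0 lower (median 0.18). They were Akap5, an anchor for kinases and phosphatases at the receptor (2.72), Nptx1, a pentraxin that clusters it (1.91), the auxiliary subunit Cacng8 (1.91) and Shisa7 (1.38, but 0.05 on another probe). Partners of kainate and delta receptors had 1 of 8 higher, the kainate auxiliary subunit Neto1 (1.98), and 1 lower, Cbln2, a cerebellin (-1.12), with a median of -0.02. Metabotropic signalling had 2 of 17 genes higher and 2 lower (median 0.18). Trpc5, a receptor-operated channel, was at 2.73 and Plcb1, a phospholipase C, at 1.43. Plcb4, another phospholipase C, was among the lower genes (-1.07). Trpc5 was at 0.70 and Plcb4 at -0.95 with normexp correction.

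Synaptic adhesion and glutamate uptake genes held no gene past 2-fold, beside 5.95% of all genes either way. In lists of this size, none is close to that share. The 18 measured adhesion genes had a median of -0.0046, from Il1rapl1 (-0.42) to Lrrc4 (0.94). The 17 genes of uptake and glutamate metabolism had a median of -0.03, from the transporter Slc1a6 (-0.43) to Slc1a2, the main astrocyte glutamate transporter (0.75).

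**Figure D5:**
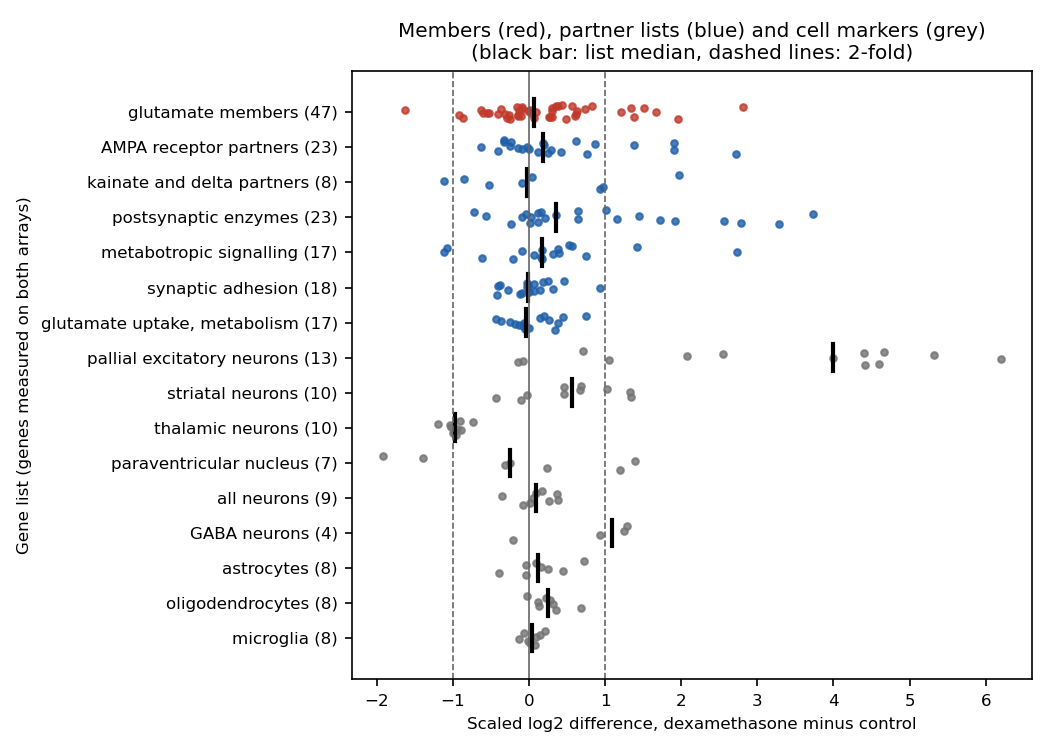
Log2 difference (dexamethasone minus control, x axis) of each measured gene among the members (red), the 6 partner lists (blue) and the 9 marker lists (grey); points are genes, black bars medians and dashed lines 2-fold. The pallial markers reach a median of 3.99 and the thalamic markers -0.97, while the members and the partner lists have medians from -0.03 to 0.35.

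Markers of other brain regions and of some cell types differed too. The counts below stand beside 2.73% of all genes at least 2-fold higher and 3.22% lower. Of 13 measured markers of pallial excitatory neurons, those of cortex and hippocampus, 10 had at least a 2-fold higher signal after dexamethasone (median 3.99), and their summed signal was 8789 on the control array and 58678 on the other; Tbr1 was well above background on the dexamethasone array alone. Of 10 measured striatal markers 3 were at least 2-fold higher (median 0.57, summed signal 40671 and 43095). With normexp or no background correction 1 striatal marker was at least 2-fold higher. All 10 measured thalamic markers were below 0, 3 of them at least 2-fold lower (median -0.97; summed signal 98577 and 52472), which lies beside Slc17a6 at -0.87 and Grm4 at -0.91. Of 4 GABA neuron markers 2 were at least 2-fold higher (median 1.09). None of the 9 general neuronal, 8 astrocyte, 8 oligodendrocyte and 8 microglial markers passed 2-fold, with medians of 0.10, 0.12, 0.25 and 0.04. In lists of this size, none is close to the 5.95% of all genes past 2-fold either way. The part of these cell populations in the values of the glutamate genes was not tested.

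The labelled nucleus was itself read through 10 markers, of which 7 were measured on both arrays. Of these, 2 were at least 2-fold higher and 2 lower, beside 2.73% and 3.22% of all genes (median -0.24, 3 above 0). Their summed signal was 6105 and 3195. This sum and those above add signals before scaling, so bright probes weigh most. On the control array most of this sum came from Avp (3463.5, against 970.3) and Oxt (1455, against 587). Avp and Oxt, hormone genes of the nucleus, were lower by 1.91 and 1.38 on the log2 scale, while Crh was higher by 1.39 and Mc4r by 1.20. The Mc4r value was 0.40 with normexp correction and 0.51 with no background correction, inside 2-fold. Sim1, a defining transcription factor, was dim on both arrays, with signals of 14.1 and 12.0. Otp, another such factor, was well above background on the dexamethasone array alone, and Brs3 and Fezf1 on the control array alone.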

How the data were processed

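Total RNA was amplified, labelled with Cy3 and hybridised to 1-colour arrays, per the labels' protocols. The scanner files deposited by the authors give linear, background-subtracted intensity and its error estimate per spot, made with Feature Extraction 10.7.1.1 per the file headers (9.5.1.1 per the submitters' processing notes). The deposited value table holds another linear intensity per probe (median 149.9 in each column); its centring is unknown here, and it served as an alternative.

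Spots with an outlier mark (267 and 249) were left out and 0 were saturated. Log2 intensity was averaged per probe and each array's 75th percentile (1404 control, 1480 dexamethasone) subtracted. Of the array's probes, 79.5% and 78.2% were well above background. A gene took its brightest probe well above background on both arrays. Printed signals are before this scaling; single-spot errors are the scanner software's, combined over both arrays. Over 1314 repeated probes the spot SD of the difference had a median of 0.041, and over the 109 below a log2 signal of 6 it was 0.21.

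With 1 array per group, a 2-fold difference is a size rule and not a test, and the spread between animals is not measured. The members and lists were chosen with earlier results of these data known. Each member is named, apart from a few items that are not reported here though they count in the totals, with signals for those past 2-fold, the 3 nearest to it from inside and the closest to equality in each family; other signals were added after values were seen. In each partner list the genes past 2-fold are named, again apart from items not reported here, otherwise the extremes. Of the marker lists only some genes are named. Python 3.11.15, pandas 2.3.3, R 4.3.3 and limma 3.58.1 (normexp with offset 50, quantile, cyclic loess) were used, and the steps were tested on simulated data.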

Additional observations from a re-analysis of the deposited data

How the results depend on the processing

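The member counts, 7 at least 2-fold higher and 1 lower, were the same with median scaling, quantile and cyclic loess normalization, the deposited value table, outlier spots kept, no filter on dim probes, the mean over probes and RefSeq names. With normexp or no background correction 4 were higher and 1 lower, the member median was -0.016 and 0.0064, and the count of all genes past 2-fold either way fell from 1198 to 576 and 573. Among genes of above-median signal 3 of 24 members were higher and 1 lower, with a median of -0.031, beside 2.02% and 1.43% of all such genes and a median of 0.04. At a 1.5-fold rule 12 of 47 (25.5%) were higher and 5 (10.6%) lower, beside 6.21% and 8.55% of all genes. With no filter on dim probes the median was 0.17, beside 0.09 for all genes. No called member changed sign. Of 494 values of single genes under alternatives, 83 moved by more than the spot SD. The cause of these shifts was not tested.

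No paired analysis was possible because each group held 1 array, and for the same reason no fit left out a replicate. Low signal limits the values of dim members, among them Slc17a7, Slc17a8, Slc17a9, Dlgap2, Grin1, Grin2b, Homer3, Shank2, Grik3 and Grm6.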
